A study of Homo sapiens with 12 samples.

Results

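YAP1 and WWTR1 (which encodes the protein TAZ), the 4 TEAD genes and 4 of their best known target genes were followed through 12 RNA sequencing libraries. The members were taken by name as rows of the deposited table, with earlier results of these data known. They are YAP1, WWTR1, TEAD1, TEAD2, TEAD3, TEAD4, CTGF, CYR61, ANKRD1 and AMOTL2, 10 of the 38516 genes listed. CTGF and CYR61 are now also called CCN2 and CCN1. The libraries come from 2 established human lines of ESCC (esophageal squamous cell carcinoma), KYSE150 and KYSE510, grown in RPMI-1640 medium with fetal bovine serum. Each line had a control group and a group silenced for HCP5, the gene of a long non-coding RNA, with 3 libraries in each of the 4 groups. All sample titles begin with "sh", and the silencing and control reagents are not given in the sources used here. Nothing in the labels says that replicates were separate cultures, so p-values measure only the spread between these libraries, which may be technical.

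YAP and TAZ are transcriptional coactivators that do not bind DNA themselves. In the nucleus they act through the DNA-binding TEAD proteins, and kinases of the Hippo pathway, LATS1 and LATS2 last in the chain, phosphorylate them and keep them in the cytoplasm. In squamous epithelia the pathway responds to cell density, attachment and the actin cytoskeleton, and YAP is most active in basal and wounded cells. Serum also raises YAP activity and many of the same target genes.

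Levels are RPKM as deposited (read number divided by exon length and by the gene-assigned reads of that library), so they can be compared between genes. Reads in genes ranged from 20035025 to 28202422 per library, and in KYSE150 every silenced library was deeper than every control. HCP5 itself ran from 0.745 to 0.786 RPKM in KYSE150 controls and from 0.315 to 0.579 in silenced libraries, and from 0.914 to 1.85 and from 0.505 to 0.951 in KYSE510. It was lower in the silenced library of all 6 same-numbered pairs, but its limma adjusted p was 0.267 in KYSE150 and 0.646 in KYSE510. Squamous markers were present: TP63 ran from 14.9 to 24.6 RPKM and KRT5 from 204.9 to 1423 over the 12 libraries. SOX2 was near 0 in KYSE150 controls (mean 0.160) and PKP1 near 0 in KYSE510 controls (mean 0.0746). The summed fibroblast markers reached at most 0.822 RPKM and the endothelial ones at most 2.09, nearly all of it CDH5 in KYSE510. Of the leukocyte markers, CD68 ran from 29.7 to 47.1 RPKM, while PTPRC and LYZ were at or near 0.

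In each line WWTR1 was higher and YAP1 lower in every silenced library than in the control of the same number, though neither change passed the limma test in either line. YAP1 (chromosome 11, 102110461 to 102233423, plus strand, GRCh38) had 19.1, 18.1 and 22.2 RPKM in KYSE150 control replicates 1, 2 and 3. Its silenced libraries of that line had 15.3, 17.2 and 18.9 RPKM. The KYSE150 groups overlapped, since silenced replicate 3 lay above control replicate 2. In KYSE510, YAP1 had 31.5, 35.5 and 38.1 RPKM in controls and 26.6, 23.3 and 29.2 in silenced libraries. There the highest silenced library lay below the lowest control.

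**Figure D1:**
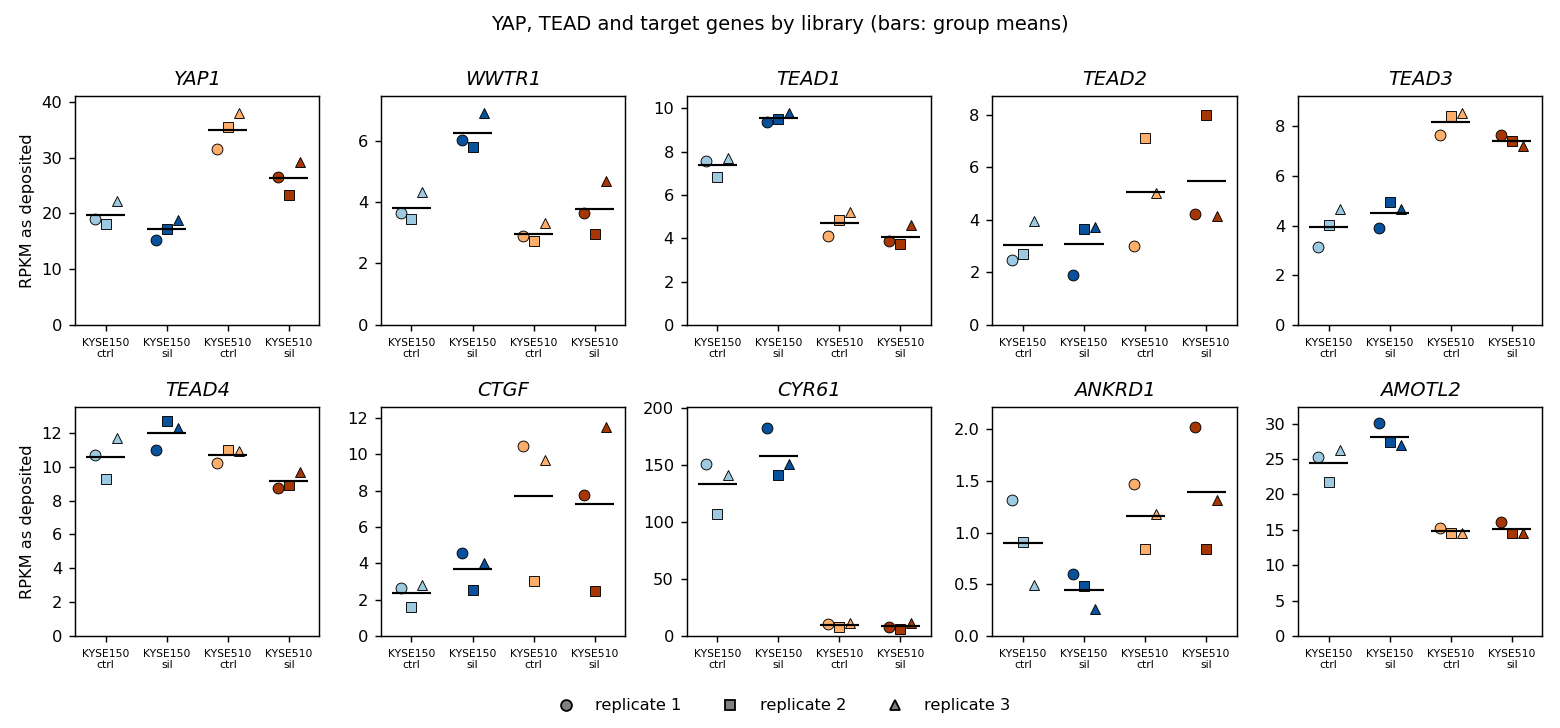
RPKM of the 10 members in each library (vertical axis from 0, a scale of its own per gene), by line and by control (ctrl) or silenced (sil) group, with group means as bars and the replicate number as the symbol. WWTR1 is higher in all 3 silenced KYSE150 libraries than in the controls, CYR61 is far higher in KYSE150 than in KYSE510, and CTGF and CYR61 are lowest in replicate 2 of every group.

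WWTR1 (chromosome 3, 149517235 to 149736714, minus strand) had 3.64, 3.43 and 4.32 RPKM in KYSE150 controls. Its silenced libraries had 6.03, 5.80 and 6.90 RPKM, all above every control. KYSE510 values were 2.89, 2.72 and 3.32 RPKM in controls and 3.65, 2.96 and 4.68 in silenced libraries, where silenced replicate 2 lay within the control range. The 95% Poisson intervals of WWTR1 in KYSE150, which cover counting error only, ran from 3.16 to 4.62 over the controls and from 5.497 to 7.25 over the silenced libraries. Both coactivator genes share exon bases with antisense genes, YAP1 9.97% of its exon length with RP11-864G5.3 and WWTR1 9.45% with WWTR1-AS1. Whether counting used strand is not given in the sources used here, so part of these reads cannot be assigned.

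On the log2(RPKM + 0.5) scale the change of WWTR1 was 0.65 (SE 0.14) for KYSE150 and 0.28 (SE 0.14) for KYSE510. Limma adjusted p-values over all 17823 genes tested were 0.0743 and 0.851, so neither passed 0.05. With the replicate number as a block WWTR1 passed in KYSE150 (limma adjusted p 0.0162) and stayed at 0.214 in KYSE510. The adjusted p of WWTR1 in KYSE150 ran from 7.33e-05 to 0.268 over the alternatives, and it was 0.0334 without KYSE150 control replicate 3. Averaged over the lines its change was 0.47 (SE 0.10), at a limma adjusted p of 0.0858, which the block brought to 0.0132 and the alternatives to between 6.24e-05 and 0.212. This mean passed (0.0440) without KYSE510 silenced replicate 2.

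YAP1 changed by -0.20 (SE 0.12) with silencing in KYSE150 and by -0.40 (SE 0.12) in KYSE510 (limma adjusted p 0.368 and 0.438). Its mean change over lines was -0.30 (SE 0.08), at a limma adjusted p of 0.160, which the block brought to 0.0477 and the alternatives to between 0.00243 and 0.285. Of all genes tested, 6.70% were higher in all 6 same-numbered pairs, as WWTR1 was, and 2.77% were lower in all 6, as YAP1 was. Exact two-sided permutation within lines, over 400 arrangements, gave 0.01 for each of these genes, where 0.005 is the smallest possible. The change of WWTR1 differed between lines by -0.37 (SE 0.20) and that of YAP1 by -0.20 (SE 0.16), at a limma adjusted p of 0.434 and 0.572.

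As a description with no test, WWTR1 made up 16.02%, 15.9% and 16.3% of the summed YAP1 and WWTR1 level in KYSE150 controls. In silenced KYSE150 libraries the share was 28.3%, 25.2% and 26.7%. For KYSE510 the shares were 8.39%, 7.12% and 8.03% without silencing and 12.1%, 11.3% and 13.8% with it. No silenced share fell within the control range of its line, and YAP1 was the more abundant transcript in all 12 libraries. The sum of both genes was 23.6 ± 2.61 RPKM without and 23.4 ± 2.26 with silencing in KYSE150 (SD, n = 3). In KYSE510 it was 37.98 ± 3.503 RPKM without and 30.1 ± 3.82 with silencing (SD, n = 3), and every silenced library (26.2 to 33.9) lay below every control (34.4 to 41.4). This share was chosen after the values were seen. In bulk RNA, fewer cells with a transcript and less of it per cell cannot be told apart.

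**Figure D2:**
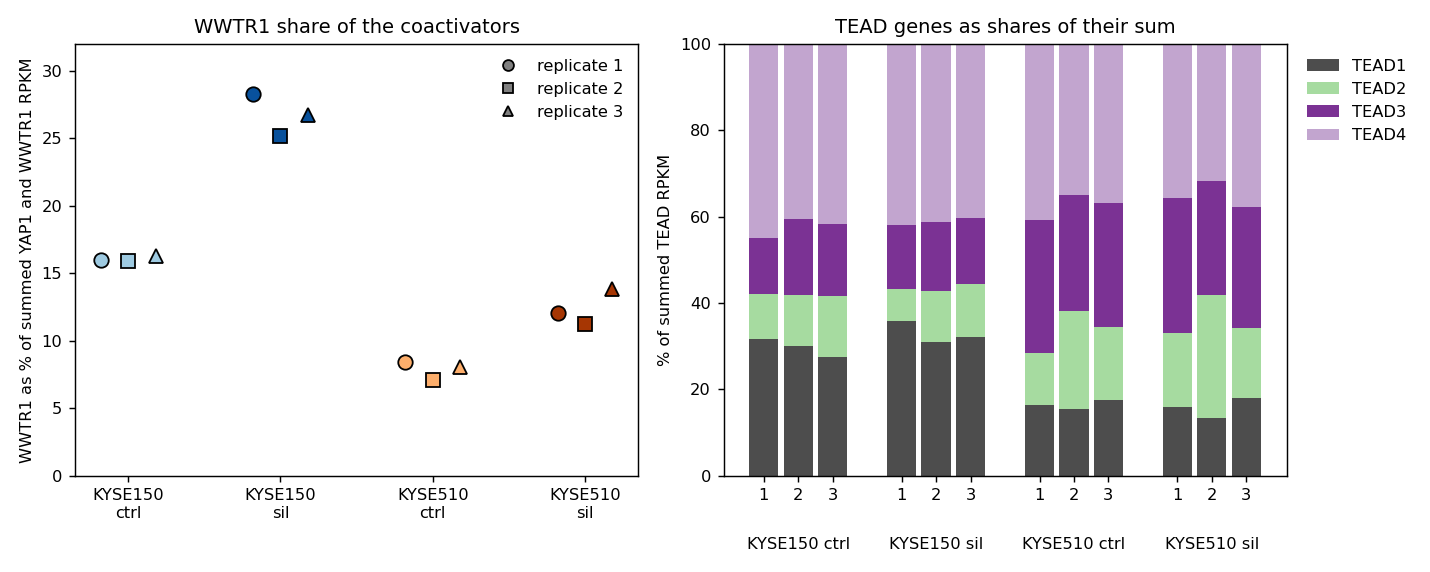
Left, WWTR1 as a percentage of the summed RPKM of YAP1 and WWTR1 in each library, with symbols for the replicate number. Right, each TEAD gene as a percentage of the summed TEAD RPKM (bars, 1 per library, labelled by replicate). The WWTR1 share is 15.9% to 16.3% in KYSE150 controls and 25.2% to 28.3% in silenced libraries, and TEAD4 is the largest TEAD share in every library.

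The TEAD genes encode the DNA-binding partners, which share a TEA domain. TEAD4 was the most abundant in all 12 libraries, at 42.4% ± 2.21 of the TEAD sum in KYSE150 controls and 37.6% ± 2.97 in KYSE510 controls (SD, n = 3). TEAD1 came second in KYSE150 (29.7% ± 2.12 of the sum, SD, n = 3), and TEAD3 second in KYSE510 controls (28.8% ± 1.94, SD, n = 3). In KYSE510 silenced replicate 2, TEAD2 took 28.5% and TEAD3 26.4%, so the order of those genes there was the other way round.

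TEAD1 (chromosome 11, 12674591 to 12944483, plus strand) had 7.54, 6.84 and 7.70 RPKM in KYSE150 controls and 9.37, 9.50 and 9.77 in silenced libraries. The groups did not overlap. The KYSE510 libraries had 4.09, 4.83 and 5.20 RPKM in controls and 3.89, 3.74 and 4.60 in silenced libraries, which overlap. TEAD4 (chromosome 12, 2959330 to 3040673, plus strand) had 10.7, 9.26 and 11.7 RPKM in KYSE150 controls and 10.95, 12.7 and 12.3 in silenced libraries. In KYSE510 its controls at 10.2, 10.99 and 10.9 RPKM all lay above its silenced libraries at 8.77, 8.94 and 9.68.

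The log2 change of TEAD1 was 0.36 (SE 0.10) for KYSE150 and -0.18 (SE 0.10) for KYSE510, at a limma adjusted p of 0.125 and 0.862. With the replicate block TEAD1 passed in KYSE150 (limma adjusted p 0.0393, in a range over alternatives from 0.00304 to 0.381). TEAD4 changed by 0.18 (SE 0.09, limma adjusted p 0.329) and -0.22 (SE 0.09, 0.749). TEAD3 (chromosome 6, 35473597 to 35497076, minus strand) changed by 0.18 and -0.13, with limma adjusted p-values of 0.448 and 0.945. TEAD2 (chromosome 19, 49340595 to 49362457, minus strand) ranged from 1.92 to 3.96 RPKM over KYSE150 libraries and from 2.999 to 8.01 over KYSE510 libraries. Its changes of -0.00041 and 0.12 were smaller than their SE of 0.33, and control and silenced libraries overlapped in both lines. TEAD2 shares 10.7% of its exon length with CD37 on the opposite strand.

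**Figure D3:**
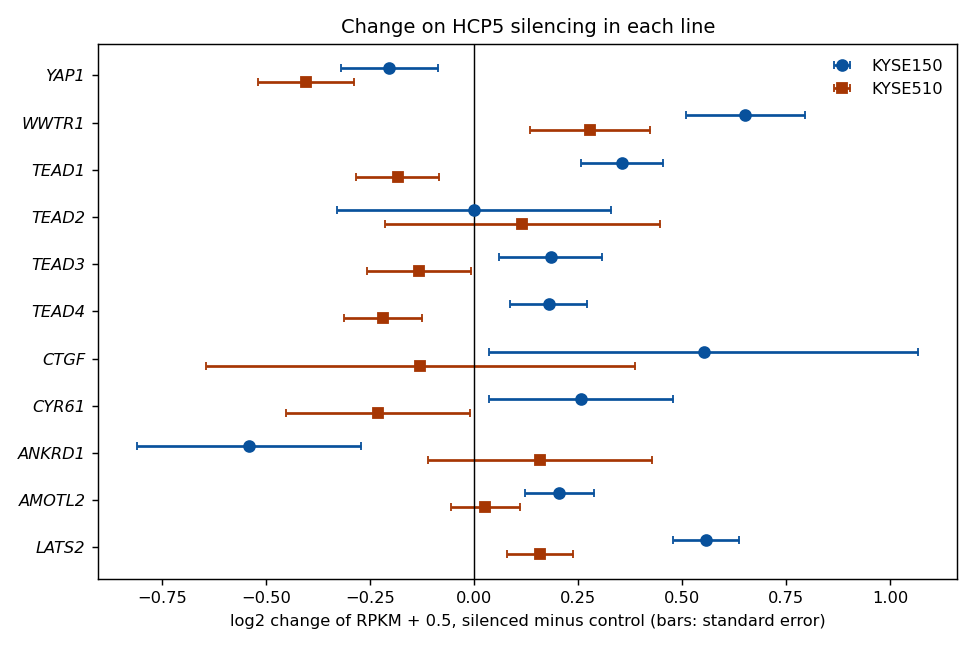
Log2 change of RPKM + 0.5, silenced minus control, with its standard error from the limma fit, for the 10 members and LATS2 in KYSE150 (circles) and KYSE510 (squares). WWTR1 lies above 0 and YAP1 below 0 in each line, at 0.65 and 0.28 and at -0.20 and -0.40, AMOTL2 lies above 0 in each line, and TEAD1, TEAD3, TEAD4, CTGF, CYR61 and ANKRD1 have opposite signs in the lines, as does TEAD2, whose KYSE150 change is next to 0.

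CTGF and CYR61 encode secreted matricellular proteins of the CCN family and are among the transcripts most often read as YAP activity. CTGF (chromosome 6, 131948176 to 131951373, minus strand) had 2.67, 1.60 and 2.81 RPKM in KYSE150 controls and 4.55, 2.53 and 4.03 in silenced libraries. CTGF in KYSE510 had 10.4, 3.03 and 9.67 RPKM in controls and 7.79, 2.51 and 11.5 in silenced libraries. Replicate 2 was the lowest CTGF library in each of the 4 groups, and control and silenced libraries overlapped in both lines.

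CYR61 (chromosome 1, 85580761 to 85583962, plus strand) had 151, 107 and 141 RPKM in KYSE150 controls and 183, 142 and 151 in silenced libraries. In KYSE510 it had 10.5, 7.62 and 11.7 RPKM in controls and 8.12, 6.08 and 11.4 in silenced libraries. The groups overlapped in each line, and again replicate 2 was lowest in each group. The ratio of CYR61 to CTGF was 37.5 to 67.0 in KYSE150 libraries and 0.993 to 2.52 in KYSE510 libraries.

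The promoter of CTGF is a textbook place of TEAD binding, so its sequence is shown as the example for the target genes. The first line below gives the 250 bases before the start of CTGF from RefSeq (GRCh38.p14, chr6:131951373-131951622, minus strand, 5′ to 3′). The lines after it give short windows around the matches of ANKRD1, AMOTL2 and YAP1, at chr10:90921292-90921317 and chr10:90921200-90921225 (minus strand), chr3:134374501-134374526 (minus strand) and chr11:102110275-102110300 (plus strand). Capitals mark the word GGAATG, the core of the site that TEAD proteins bind, or CATTCC, the same word on the other strand. No other word was searched.
CTGF: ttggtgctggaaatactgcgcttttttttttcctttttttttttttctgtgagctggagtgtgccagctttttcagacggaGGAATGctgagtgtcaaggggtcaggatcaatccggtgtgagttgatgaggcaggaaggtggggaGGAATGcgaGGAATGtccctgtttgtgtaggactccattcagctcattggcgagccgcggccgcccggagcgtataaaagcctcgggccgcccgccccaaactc
ANKRD1, far match: caccaccaaaGGAATGgccctctcac
ANKRD1, near match: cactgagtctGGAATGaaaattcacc
AMOTL2, its second listed start: gaaactctcaCATTCCtggcatagca
YAP1: ggagtgtgcaGGAATGtagcaacttg

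The CTGF sequence holds 3 copies of the word, which begin 169, 104 and 95 bases before the start, and ANKRD1 holds 2, at 220 and 128 bases. Starts here are those of RefSeq. The RefSeq start of ANKRD1 lies inside the gene bounds printed for it below, and so does its near match. YAP1 holds 1, at 162 bases. AMOTL2 has 0 copies before its first listed start and 1 before its second, at 69 bases, which lies inside the gene bounds printed for it below. The RefSeq table held 10 promoter sequences, for 7 of the 10 members. Those of WWTR1, TEAD2 and TEAD3 hold 0 copies, which says only that these letters are not in this window. Over all 35116 promoters of the table, 11.9% hold the word at least once, 0.940% at least 2 times and 0.0826% at least 3 times. A match is a description of the sequence and not a measured site.

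CTGF changed by 0.55 (SE 0.52) in KYSE150 and by -0.13 (SE 0.52) in KYSE510 (limma adjusted p 0.590 and 0.997). In the fit with the replicate number as a block, CTGF in KYSE150 passed at a limma adjusted p of 0.0473 (range over alternatives 0.0118 to 0.879). In KYSE150 silenced CTGF stood at 170.8%, 157.9% and 143.5% of the control of the same number. In KYSE510 these were 74.6%, 82.9% and 119.1%, and the log2 change of CTGF there ran from -0.66 to 0.45 as single libraries were left out. CYR61 changed by 0.26 (SE 0.22, limma adjusted p 0.552) in KYSE150 and by -0.23 (SE 0.22, 0.945) in KYSE510, and neither passed with the block (0.0969 and 0.307). CTGF shares 8.34% of its exon length with RP11-69I8.3 on the opposite strand.

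ANKRD1 (chromosome 10, 90912096 to 90921276, minus strand), which encodes an ankyrin repeat protein, was the scarcest member. It had 1.31, 0.911 and 0.490 RPKM in KYSE150 controls and 0.596, 0.484 and 0.262 in silenced libraries, on 14 to 52 reads. In KYSE510 it had 1.47, 0.840 and 1.18 RPKM in controls and 2.02, 0.838 and 1.32 in silenced libraries. Groups overlapped in both lines. ANKRD1 changed by -0.54 (SE 0.27) in KYSE150, at a limma adjusted p of 0.313, which the block brought to 0.0389 and the alternatives to between 0.0209 and 0.688. Its KYSE510 change was 0.16 (SE 0.27, 0.972). In KYSE150, ANKRD1 thus had the opposite sign to CTGF, CYR61 and AMOTL2, and was lower in 3 of 3 same-numbered pairs.

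AMOTL2 (chromosome 3, 134355874 to 134375479, minus strand) encodes an angiomotin-like protein that binds YAP, and its gene is itself a YAP target. It had 25.2, 21.8 and 26.3 RPKM in KYSE150 controls and 30.0, 27.4 and 27.0 in silenced libraries, with no overlap. For KYSE510 the values were 15.2, 14.6 and 14.5 RPKM in controls and 16.1, 14.5 and 14.6 in silenced libraries. Its log2 change was 0.20 (SE 0.08, limma adjusted p 0.242) in the first line and 0.03 (SE 0.08, 0.992) in the second. AMOTL2 shares 3.12% of its exon length with the pseudogene RPL39P5 on the same strand.

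Over the members as a group, all 10 passed the filter on low values and 0 passed the limma threshold in either line, in the mean over lines or in the difference between lines. The same test called 0.499% of all genes in KYSE150, 0.0393% in KYSE510, 0.539% in the mean and 0.00% in the difference (also 0.00% with the block). Taken without adjustment, p was under 0.05 for 3 members in KYSE150 (WWTR1, TEAD1 and AMOTL2), against 18.1% of all genes. There were 2 in KYSE510 (YAP1 and TEAD4), against 6.35%, and 2 in the mean and 2 in the difference, against 11.5% and 12.2%. With the replicate block 4 members passed in KYSE150 (WWTR1, TEAD1 and CTGF higher, ANKRD1 lower), against 6.70% of all genes, 5.04% higher and 1.66% lower. With the block 0 passed in KYSE510 (5 at an unadjusted p under 0.05), against 0.112%, and 2 in the mean (WWTR1 and YAP1), against 2.74%. Voom on recovered reads called 1 member in KYSE150 and in the mean, WWTR1 each time, and 0 in KYSE510, where it called 0.718%, 0.724% and 0.0281% of all genes, and 0 in the difference, where it called 0.00%. Voom with the block called 6 members in KYSE150, 2 in KYSE510, 2 in the mean and 5 in the difference, against 20.5%, 2.58%, 7.96% and 9.40% of all genes. With centring of the libraries and the block 3 members passed in KYSE150 and 2 in the mean, against 4.76% and 2.42%. Without KYSE150 control replicate 3, WWTR1 alone passed in KYSE150, where 7.22% of all genes did.

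The median log2 change of the members was 0.19 in KYSE150 and -0.13 in KYSE510, beside 0.08 and -0.02 over all genes. Centring each library on its median moved the KYSE150 values to 0.06 for the members and -0.05 for all genes. In KYSE150, 6 members were higher in all 3 pairs, against 37.4% of all genes, and 3 were higher with no overlap between groups, against 13.7%. In KYSE510, 4 members were lower in all 3 pairs, against 21.8% of all genes, and 2 were lower with no overlap, against 6.87%.

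Squamous markers were followed over the same contrast. In KYSE150, 6 of the 7 had a positive change and their summed level ran from 479.6 to 1029 RPKM in controls and from 761.3 to 1936 in silenced libraries. In KYSE510, 6 of 7 were positive and the sums were 268.6 to 330.9 RPKM and 429.7 to 542.3. KRT5 made up most of these sums, at 415.7 to 874.6 RPKM in KYSE150 controls and 204.9 to 263.1 in KYSE510 controls. The median change of the 7 was 0.56 in KYSE150 and 0.27 in KYSE510, beside 0.08 and -0.02 over all genes. By limma 0 of the 7 passed in either line (at an unadjusted p under 0.05, 4 in KYSE150 and 3 in the other line). Of all genes 18.1% and 6.35% had such a p. With the replicate block 6 and 1 markers passed, against 6.70% of all genes in KYSE150 and 0.112% in KYSE510. The part of these markers, or of depth in KYSE150, in the changes of the members was not tested.

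The Hippo kinases and their upstream regulators act against YAP and TAZ. Of the 20 listed, all tested, 1 passed limma in KYSE150, against 0.499% of all genes. None passed in KYSE510, where 1 had an unadjusted p under 0.05 and 0 passed with the block. The median change of the 20 was 0.16 in KYSE150 and 0.01 in KYSE510, beside 0.08 and -0.02 over all genes. With the libraries centred the KYSE150 median was 0.03, with 13 of the 20 positive in place of 16, beside -0.05 over all genes. The gene that passed was LATS2 (chromosome 13, 20973032 to 21061547, minus strand), the kinase that phosphorylates YAP and TAZ. LATS2 is also listed among the YAP target genes, as it is induced by YAP. It had 4.33, 4.31 and 4.86 RPKM in KYSE150 controls and 7.01, 7.04 and 6.50 in silenced libraries, with a wide gap between the groups. In KYSE510 it had 1.34, 1.497 and 1.499 RPKM in controls and 1.60, 1.68 and 1.73 in silenced libraries, also with no overlap.

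LATS2 rose by 0.56 on the log2 scale in KYSE150 (SE 0.08, limma adjusted p 0.0149) and changed by 0.16 in KYSE510 (SE 0.08, 0.851). Its mean change of 0.36 over lines also passed (limma adjusted p 0.0186), and it was higher in 6 of 6 pairs. The difference of the changes between lines was -0.40 (SE 0.11, limma adjusted p 0.394). The KYSE150 call was lost when either of KYSE150 control replicates 1 and 2 (0.0954 and 0.0682) or any of silenced replicates 1, 2 and 3 (0.0552, 0.0795 and 0.0531) was left out, and with the 6 libraries of that line alone (0.181). The call for the mean was lost without KYSE150 control replicates 1 or 2 (0.0738 and 0.0552), KYSE150 silenced replicates 1 or 2 (0.0565 and 0.0670), KYSE510 control replicate 2 (0.0522) or KYSE510 silenced replicate 3 (0.0641).

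The replicate block called 5.04% of all genes higher in KYSE150, and 3 of the 20 Hippo genes passed there, all higher. They were LATS2, SAV1 (0.40, limma adjusted p 0.0373 with the block and 0.139 without), a scaffold of the kinase MST, and the kinase gene MINK1 (0.21, 0.0452 and 0.274). Of 9 tested cofactors of YAP and TEAD (11 listed), 0 passed in either line by limma, with 3 at an unadjusted p under 0.05 in each. Of all genes, 18.1% in KYSE150 and 6.35% in KYSE510 had such a p. With the block TP73 and VGLL4 passed in KYSE150, with changes of 0.59 and 0.49. That was 2 of the 9, against 5.04% of all genes called higher. TP73 was low in that line, at 0.140 to 0.245 RPKM in controls and 0.450 to 0.663 in silenced libraries. VGLL4 competes with YAP for TEAD, and TP73 encodes the p53 relative p73, a partner of YAP. These genes, and others called with the block alone, were singled out after their values were seen.

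Other genes known as YAP and TAZ targets did not move one way. Of the 17 tested (18 listed), 9 had a positive and 8 a negative change in KYSE150, with a median of 0.02, and 10 and 7 in KYSE510, with a median of 0.06. Centring turned the KYSE150 median to -0.11, with 7 positive and 10 negative. LATS2 alone passed in KYSE150, and 0 passed in KYSE510 (1 at an unadjusted p under 0.05). With the replicate block CRIM1 (0.40) and IGFBP3 (-0.84) passed in KYSE150 beside LATS2, at limma adjusted p-values of 0.0233 and 0.0203, against 0.192 and 0.0837 without it. IGFBP3, which encodes a binding protein of insulin-like growth factors, also passed with the block in the mean over lines (-0.64, 0.0175), as did CRIM1 (0.24, 0.0376). The block thus called 3 of the 17 in KYSE150 and 3 in the mean, against 6.70% and 2.74% of all genes.

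Genes of the serum response and of actin overlap with YAP targets in the signals they answer. Of 23 tested (25 listed), 21 had a positive change in KYSE150 with a median of 0.25, and 12 in KYSE510 with a median of 0.03, beside 0.08 and -0.02 over all genes. With the libraries centred 17 were positive in KYSE150 and the median was 0.12, beside -0.05 over all genes. By limma 0 passed in either line (4 and 2 at an unadjusted p under 0.05, against 18.1% and 6.35% of all genes). With the block the immediate early genes JUNB, IER2 and IER3 passed in KYSE150, with changes of 0.72, 0.58 and 0.75. They were 3 of the 23, against 5.04% of all genes called higher. Of the other 2 lists, neighbours of YAP1 (7 tested) and other CCN genes (2 tested), 0 genes passed by limma in either line, and only 1 neighbour, in KYSE150, had an unadjusted p under 0.05. With the block the neighbour TMEM123 passed in KYSE150 (0.67, limma adjusted p 0.0356), 1 of 7 against the same 5.04% of all genes.

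CTGF and CYR61 varied with the replicate number within every group. In replicate 2 the deviation of CTGF from its group mean on the log2 scale was -0.41 in KYSE150 control, -0.44 in KYSE150 silenced, -1.05 in KYSE510 control and -1.15 in KYSE510 silenced. For CYR61 it was -0.29, -0.15, -0.34 and -0.42 in the same order. The serum response and actin genes had a median deviation of -0.29, -0.12, -0.24 and -0.33 in replicate 2 of these groups, with 18, 17, 19 and 19 of the 23 below the group mean. In replicate 3 these medians were 0.19, 0.05, 0.19 and 0.28. Lower values in replicate 2 were not particular to these genes. The squamous markers had medians of -0.204, -0.157, -0.034 and -0.100 there, with KRT6A at -0.744, -0.789, -0.906 and -1.284. The Hippo genes had medians of -0.003, -0.008, 0.026 and -0.017. The share over all genes was not counted. What the replicate number stands for is not given in the labels.

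**Figure D4:**
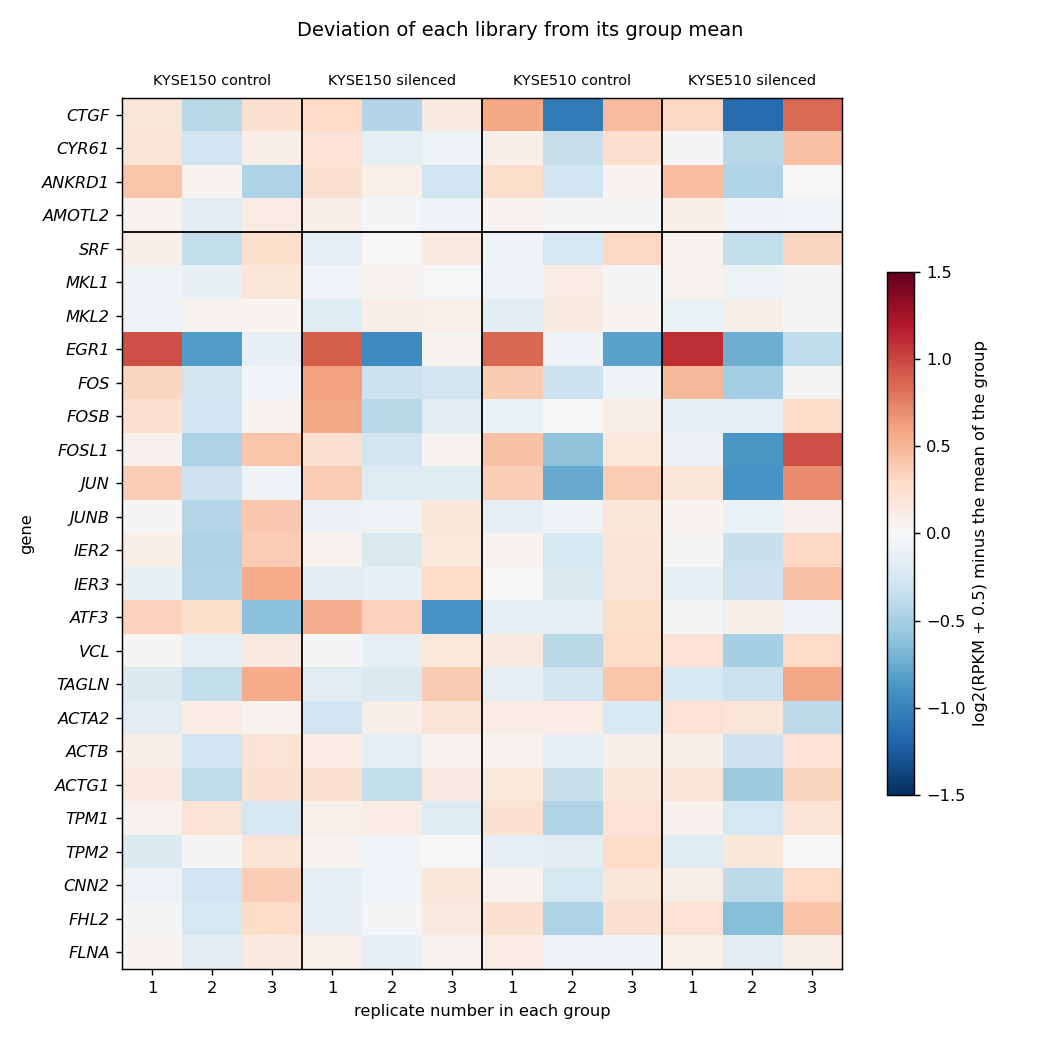
Deviation of each library from the mean of its group, in log2(RPKM + 0.5) (colour), for the 4 target genes among the members (above the line) and the tested genes of the serum response and actin list (1 is not shown), by group and replicate number. CTGF, CYR61 and most of the list are below the group mean in replicate 2 of each group, while ANKRD1 and AMOTL2 follow less closely.

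Over the 12 libraries the deviations of CTGF and CYR61 from their group means had a Pearson r of 0.919 (Spearman rho 0.853). Those of YAP1 followed WWTR1 (r 0.822), TEAD1 (0.821) and TEAD4 (0.781), and those of CTGF followed YAP1 at r 0.373 and WWTR1 at 0.784. TEAD2 ran against CTGF (r -0.725) and ANKRD1 (-0.824). These values are descriptions over libraries that share replicate numbers across groups, and every gene of a library shares its depth. Among 14027 genes with a mean RPKM of at least 1, the deviations of MAFF (r 0.979) and DUSP1 (0.971) were among those most like CYR61. For CTGF they were CSRP1 (0.984), ARL14 (0.983) and BAG1 (0.978), and for YAP1 XPO6 (0.990), DEGS1 (0.978) and N4BP1 (0.974).

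The control groups of the 2 lines were compared as the baseline of the members. By limma 6 of 10 members passed, with 3 higher and 3 lower in KYSE510, beside 62.0% of all genes (28.3% higher and 33.7% lower). YAP1 was higher in KYSE510 (35.0 ± 3.30 against 19.8 ± 2.15 RPKM, SD, n = 3), a log2 difference of 0.81 (SE 0.12, limma adjusted p 9.49e-05). CYR61 was lower in KYSE510 (9.95 ± 2.11 against 133 ± 22.8 RPKM, SD, n = 3), a difference of -3.68 (SE 0.22, 7.78e-08), while CTGF was higher (7.71 ± 4.07 against 2.36 ± 0.658, SD, n = 3; difference 1.38, SE 0.52, 0.0355). So the 2 CCN genes differed in opposite directions between the lines. The call for CTGF was lost without KYSE150 control replicate 1 (0.0581) or 2 (0.108), or KYSE510 control replicate 1 (0.125) or 3 (0.117).

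TEAD3 was higher in KYSE510 by 0.98 (SE 0.12, limma adjusted p 3.52e-05), and TEAD1 and AMOTL2 were lower, with differences of -0.60 (SE 0.10, 0.000282) and -0.70 (SE 0.08, 2.07e-05). WWTR1 (-0.30, limma adjusted p 0.0854), TEAD2 (0.60, 0.135), ANKRD1 (0.27, 0.405) and TEAD4 (0.03, 0.829) did not pass. TEAD2 passed without KYSE510 control replicate 1 (0.0362), and WWTR1 without KYSE510 silenced replicate 2 (0.0499) or 3 (0.0441), which enter only through the shared spread. In order of level, KYSE150 controls ran CYR61, AMOTL2, YAP1, TEAD4, TEAD1, TEAD3, WWTR1, TEAD2, CTGF and ANKRD1. There AMOTL2 and YAP1 overlapped in range, and so did each pair of neighbours from TEAD3 to CTGF. KYSE510 controls ran YAP1, AMOTL2, TEAD4, CYR61, TEAD3, CTGF, TEAD2, TEAD1, WWTR1 and ANKRD1. In that line each pair of neighbours from TEAD4 to TEAD1 overlapped in range.

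**Figure D5:**
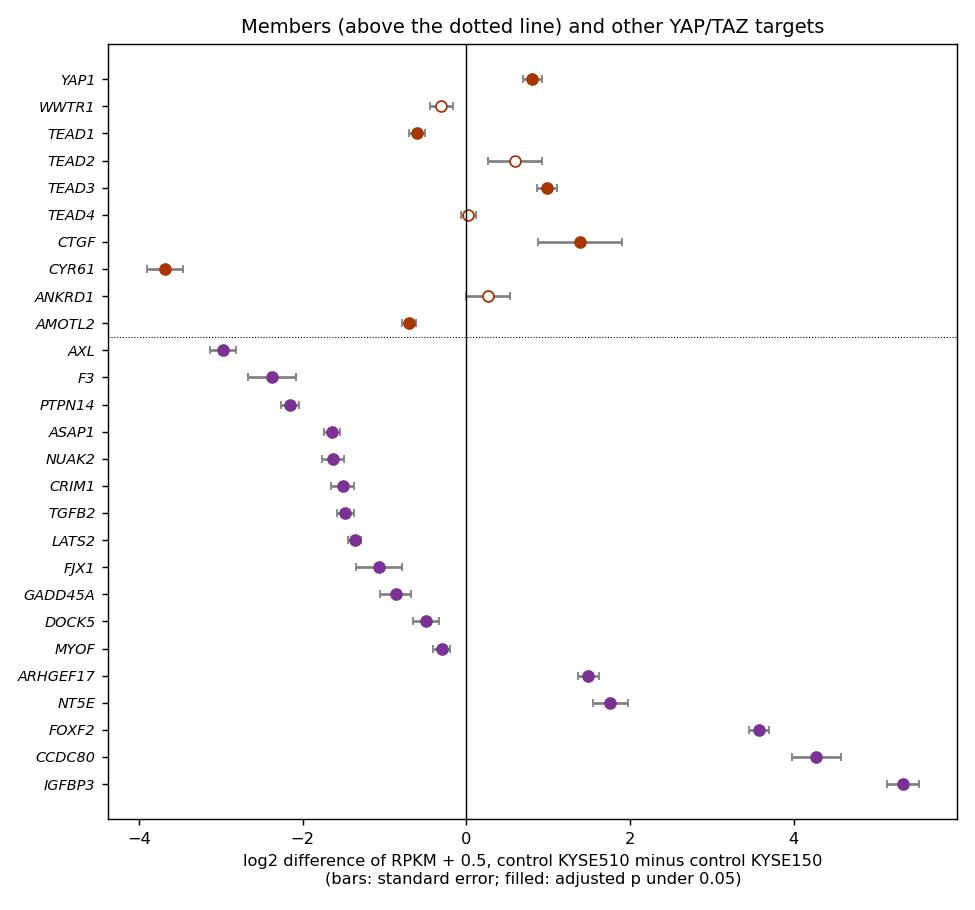
Log2 difference of RPKM + 0.5 between the control groups, KYSE510 minus KYSE150, with its standard error from the limma fit, for the members (above the dotted line) and the 17 tested other targets of YAP and TAZ. Filled points have a limma adjusted p under 0.05. CYR61 is the lowest at -3.68 and IGFBP3 the highest at 5.33.

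By limma all 17 tested other targets differed between control lines, with 5 higher and 12 lower in KYSE510 and a median of -1.07, against -0.07 over all genes. The count was 16 with the libraries centred and ran from 15 to 17 as single libraries were left out. Lower in KYSE510 were AXL, a receptor tyrosine kinase (49.6 RPKM in KYSE150 and 5.88 in KYSE510), F3, the coagulation tissue factor (291.6 and 57.3), PTPN14, a phosphatase that binds YAP (16.5 and 3.32), and ASAP1 (21.6 and 6.59). Higher in KYSE510 were IGFBP3 (3.96 and 176.3 RPKM), CCDC80 (0.536 and 19.99), FOXF2 (at 0 in all 3 KYSE150 controls and 5.47) and NT5E, the ectonucleotidase CD73 (0.0213 and 1.26). FOXF2, NT5E and ARHGEF17 passed the filter on low values only through KYSE510, so the filter favoured a difference in advance. Of the 14 that reached the filter level in both lines 14 were called, 2 higher and 12 lower, where 58.1% of all such genes were.

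Of the Hippo genes, 13 of 20 (65.0%) differed between control lines, with 5 higher and 8 lower in KYSE510, a share near the 62.0% of all genes. The count ran from 10 to 13 as single libraries were left out. The genes most lower in KYSE510 were PTPN14, which is in 2 lists, WWC1 (35.3 to 8.84 RPKM), LATS2 (4.50 to 1.45) and MAP4K4 (24.9 to 9.65). WWC1, also called KIBRA, is an upstream activator of LATS. The genes most higher there were TNIK (0.00898 to 1.76 RPKM), MAP4K2 (0.958 to 1.58), TAOK3 (7.60 to 10.8) and SAV1 (5.17 to 6.62). TNIK passed the filter only through KYSE510, which favoured a difference in advance. The limma call for SAV1 was lost without KYSE150 control replicate 1 (adjusted p 0.0843) or 2 (0.0998), or KYSE510 control replicate 2 (0.129) or 3 (0.118). Of the cofactors 8 of 9 differed, AMOTL1 (22.4 to 8.02) and RUNX2 (1.15 to 0.0642) being lower in KYSE510. AMOT, TP73, VGLL1 and RUNX3 were higher there, the last at 0 in all KYSE150 controls. AMOT, VGLL1 and RUNX3 passed the filter only through KYSE510 and RUNX2 only through KYSE150, so the filter favoured a difference for these 4. Of the other 5, 4 were called, where 58.1% of all genes that reached the filter level in both lines were. That level, an RPKM of 0.5, could be reached in control or silenced libraries. TP73 had at most 0.245 RPKM in KYSE150 controls and reached the level in that line only in silenced libraries. The filter thus favoured a difference for TP73 as well. The count of 8 fell to as few as 6 as single libraries were left out.

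Neighbours of YAP1 on chromosome 11 differed in both directions, with 7 of 7 tested called and 5 higher in KYSE510, where 62.0% of all genes were called. Of the 6 that reached the filter level in both lines 6 were called, against 58.1% of all such genes. The count of 7 ran from 6 to 7 as single libraries were left out. TMEM123 had 15.5 RPKM in KYSE150 controls and 84.7 in KYSE510, BIRC2, an inhibitor of apoptosis gene, 4.73 and 7.85, CEP126 0.531 and 1.74, and C11orf70 0 and 1.82. DCUN1D5 (76.2 and 24.7) and DYNC2H1 (2.42 and 0.838) were lower in KYSE510. Of other CCN genes, NOV and WISP2 were higher in KYSE510, at 1.36 and 2.10 RPKM, against 0 and 0.329. Like C11orf70, they passed the filter only through KYSE510, which favoured a difference in advance. Of the serum response and actin genes 13 of 23 (56.5%) differed, a share below that of all genes, with 6 higher (among them ACTA2, SRF, FLNA and MKL1) and 7 lower. ACTA2 passed the filter only through KYSE510. The count of 13 ran from 10 to 13 as single libraries were left out. FOSL1 (164 to 31.4 RPKM), ATF3 (8.34 to 1.46) and IER3 (43.4 to 20.8) were lower in KYSE510, as CYR61 was.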

How the data were processed

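The 12 libraries were RNA sequencing of total RNA extracted with TRIzol. Per the submitters' processing notes the tools include HISAT2 and DESeq and the build is GRCh38, and the authors deposited RPKM per gene in 1 table. Per the file headers, exon positions and lengths stand beside the RPKM. RPKM times length gave whole reads (tolerance 0.01 read) for 100% of values, so reads were recovered from the deposited RPKM. Between replicates the chi-square of the reads per gene was 10.3 to 36.6, above sampling noise, so none was a copy.

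The 17823 genes that reached an RPKM of 0.5 in 3 or more libraries were tested on log2(RPKM + 0.5), which understates the change of low genes. Limma 3.58.1 in R 4.3.3 fitted 4 group means to 12 libraries (eBayes with trend, two-sided tests, Benjamini-Hochberg over all genes, threshold 0.05), and was run on simulated counts. Those counts had independent libraries and a set spread, so they cannot show how the fit does with replicates like these. A count test is not the main test, since the values are RPKM. Voom on recovered reads was an alternative and called 128 genes in KYSE150 and 5 in KYSE510. With 3 libraries against 3, an exact permutation test cannot go below 0.1.

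The titles number the replicates. Deviations from group means correlated at 0.147 to 0.415 in all 6 same-numbered pairs and at -0.385 to 0.184 otherwise, so the numbers were taken to pair libraries. The replicate block was an alternative, as were other pseudocounts (0.1 and 1), no filter, centring, quantile normalization, no trend, 6 libraries only and leaving out each library. Voom with the block, centring with the block and the permutation within lines were added after seeing the data.

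The members and lists were chosen with earlier results of these data known. Named genes are the members, HCP5, listed genes past the threshold with silencing, up to 4 listed genes in each direction with the largest difference between control lines, and the 3 genes most like YAP1, CTGF and CYR61. A gene of the serum response and actin list enters the counts and is not reported here. Sequences were taken from RefSeq (GRCh38.p14). Gene bounds equal those of GENCODE release 29.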

Additional observations from a re-analysis of the deposited data

Results flagged for a closer look

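In TEAD1, TEAD4 and CYR61 every same-numbered pair moved 1 way in KYSE150 and the other way in KYSE510: silenced above control in the 3 pairs of KYSE150 and below it in the 3 pairs of KYSE510. Of all genes tested, 7.79% did so. The change in KYSE510 minus the change in KYSE150 was -0.54 for TEAD1 (SE 0.14), -0.40 for TEAD4 (SE 0.13) and -0.49 for CYR61 (SE 0.31). The limma adjusted p-values of these differences were 0.394, 0.394 and 0.481, and 0.109, 0.131 and 0.117 with the replicate block, so the opposite signs did not pass the test of the difference. The median difference over all genes was -0.12, and 0.04 after each library was centred. With voom and the block TEAD1 (0.0128) and CYR61 (0.0270) passed, and TEAD4 (0.0548) did not, in a setting that called 9.40% of all genes. That setting was added after seeing the data. It compares the same pairs by which these genes were flagged, so it is no separate support.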

How the results depend on the processing

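Over all alternatives, 456 counts of called genes stayed within 1.5 times of the reported count and 50 did not. For single genes 1881 values kept their direction and their side of the threshold, 37 gained a call, 23 lost one and 35 turned sign. The cause of these moves was not tested. With the replicate block the counts in KYSE150 were 4 of 10 members, 3 of 20 Hippo genes, 2 of 9 cofactors and 3 of 17 other targets. Also called were 3 of 23 serum response and actin genes and 1 of 7 neighbours of YAP1, where 6.70% of all genes passed. With voom and the replicate block the counts of these lists, in the same order, were 6, 7, 4, 7, 11 and 1, with 1 of 2 other CCN genes. That setting called 20.5% of all genes. With centring and the block the counts were 3, 2, 1, 3, 3 and 1, with 1 CCN gene, where 849 of all genes (4.76%) passed. With voom and the block KYSE510 gave 2 members, 2 cofactors, 2 other targets, 3 serum response and actin genes and 1 CCN gene. There 2.58% of all genes passed. Voom alone gave 1 member in KYSE150 and 1 in the mean over lines, against 0.718% and 0.724% of all genes. The mean over lines gave 1 member with centring (YAP1), and 2 with the block, with voom and the block and with centring and the block. Centring called 124 of the 17823 genes in the mean, and the others 2.74%, 7.96% and 2.42%. The difference between lines gave 5 members with voom and the block, where 9.40% of all genes passed. With the 6 libraries of KYSE150 alone 0 Hippo genes and 0 other targets passed.

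Leaving out single libraries, counts in KYSE150 ran from 0 to 1 for members, Hippo genes, neighbours and cofactors, and from 0 to 2 for other targets and for serum response genes. Without KYSE150 control replicate 3 the counts of members, neighbours and cofactors were 1 each, in a setting that called 1287 of the 17823 genes against 89 with all libraries. Members called in the mean ran from 0 to 1. Log2 changes that turned sign ran from -0.14 to 0.26 for TEAD2 in KYSE150. In KYSE510 they ran from -0.0215 to 0.0513 for AMOTL2, from -0.0732 to 0.38 for ANKRD1, from -0.66 to 0.45 for CTGF and from -0.18 to 0.38 for TEAD2. In the mean they ran from -0.0520 to 0.50 for CTGF, -0.0979 to 0.12 for CYR61, -0.0905 to 0.19 for TEAD2, -0.0435 to 0.0842 for TEAD3 and -0.0629 to 0.0178 for TEAD4. They ran from -0.18 to 0.38 for TEAD2 in the difference and from -0.0613 to 0.10 for TEAD4 between control lines.

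TEAD2 in KYSE150 turned to 0.002756 with a pseudocount of 1 and to 0.0185 with voom and the block. In the mean, centring with or without the block gave -0.0390 for CYR61 and -0.0261 for TEAD3, and quantile normalization -0.0213 for TEAD3. Low reads limit ANKRD1 most.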

Other observations

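Of the 7 squamous markers, KRT14, a basal keratin gene, TP63 and the desmoglein gene DSG3 were higher in every silenced library than in every control of the same line. For DSG3 in KYSE510 the gap was only from 6.016 RPKM (control replicate 2) to 6.023 (silenced replicate 3). In KYSE150, 13.7% of all genes were higher with no overlap, and the share over both lines was not counted. These genes were singled out after their values were seen. Groups overlapped for KRT6A in both lines and for PKP1 in KYSE510. The other basal keratin gene on the list, KRT5, overlapped in KYSE150, where control replicate 3 (874.6 RPKM) lay above silenced replicates 1 and 2 (745.8 and 607.5), and SOX2 had negative changes (-0.15 and -0.14). KRT14 had 28.5, 23.0 and 81.2 RPKM in KYSE150 controls and 126.6, 91.2 and 368.7 in silenced libraries, and 6.78, 4.88 and 5.13 against 14.5, 16.8 and 19.8 in KYSE510. Its log2 change was 2.09 in KYSE150 and 1.53 in KYSE510 (SE 0.51 each). The limma adjusted p was 0.0964 and 0.560 without the replicate block and 0.00793 and 0.0395 with it. With the block 6.70% of all genes passed in KYSE150 and 0.112% in KYSE510. TP63, the master regulator gene of squamous epithelium, changed by 0.37 and 0.27 and passed in the mean over lines (0.32, SE 0.06, limma adjusted p 0.0483, and 0.0161 with the block). In the mean 1 of the 7 markers passed, and 5 with the block, against 0.539% and 2.74% of all genes.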
